A study of Mus musculus with 42 samples.

Results

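Olfr923 and Olfr983 are a pair of mouse odorant receptors (ORs) taken here for their enrichment at the lowest tested concentration of acetophenone (ACT), and they are 2 of the 1088 intact ORs listed for pS6-IP-Seq. They were selected on their pS6-IP-Seq counts at 0.01% ACT against no odor, so their values at 0.01% ACT, and at 0.1% ACT where the same no odor mice serve as controls, are given as a description with no test. The values at 1% and 100% ACT, at every concentration of 2,4,5-trimethylthiazoline (TMT) and in dorsal and ventral tissue come from other mice and were tested. The study had already reported Olfr923 as enriched at 1% and 100% ACT too, so its tests there are not independent of the choice. C57BL/6 mice (C57BL/6J in the study's methods) aged p20 to p22 sat in a container for an hour with an odor cassette holding ACT or TMT at a starting concentration of 0.01%, 0.1%, 1% or 100% (v/v), or with no odor, and RNA bound to phosphorylated ribosomal protein S6 (pS6) was then immunoprecipitated from the olfactory epithelium and sequenced. Each of the 8 odor groups has 3 mice, 1 from each of 3 litters, and littermates of the same sex make up a replicate. For each odorant, the 0.01% and 0.1% mice share 3 no odor littermates, and the 1% and 100% mice share another 3, which gives 12 no odor libraries and 36 pS6-IP-Seq libraries in all. Unstimulated dorsal and ventral olfactory epithelium gave 3 RNA-Seq libraries each, where 1087 ORs are listed. The study's methods describe these as total RNA extracted with TRIzol, whereas the protocol text in their labels is the one of the pS6 immunoprecipitation, and they are taken as total RNA here. No group carries a transgene or a deletion.

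ORs are G protein-coupled receptors on the cilia of olfactory sensory neurons (OSNs), and each mature OSN expresses a single OR gene from a single allele. An odorant that binds the OR raises cyclic AMP through the olfactory G protein and adenylyl cyclase, and the spiking that follows is accompanied by phosphorylation of S6 in the cell body, so that mRNA pulled down with pS6 is enriched for the ORs of activated OSNs. ACT is a simple aromatic ketone with a sweet, floral smell, and TMT is a thiazoline found in fox secretions that rodents avoid innately.

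Both genes lie in the large OR cluster of chromosome 9 (GRCm38, GENCODE M21), with 45 other listed ORs between them and their starts 1260.4 kb apart. Olfr923 is on the plus strand at chr9:38826545-38830300, and its longest annotated transcript has a short untranslated exon at chr9:38826545-38826782 followed by an exon at chr9:38827693-38830300 that holds the entire open reading frame and a long 3′ untranslated region. Olfr983 is on the minus strand at chr9:40086908-40093595, again with an untranslated first exon, at chr9:40093459-40093595, and the coding sequence within the other exon, at chr9:40086908-40092966. These transcripts have a coding sequence of 933 bases each, and another transcript of each gene starts it further upstream, at 951 bases in Olfr923 and 945 in Olfr983. Translated from these longer forms, the receptors were 62.6% identical, against a median identity of 41.2% for Olfr923 and 41.4% for Olfr983 over all listed ORs. The closest relative was another gene in each case, Olfr147 at 70.4% for Olfr923 and Olfr888 at 82.0% for Olfr983. The coding stretch at the inner end of the third transmembrane segment, one of the best conserved parts of the OR family, shows how far reads from the pair can be told apart. It is printed 5′ to 3′ on the coding strand, with capitals at the 7 of 30 bases that differ, from chr9:38828062-38828091 (plus strand) and chr9:40092575-40092604 (minus strand).
Olfr923: atggcAtatgacCgTtatgTtgcTatTtgC
Olfr983: atggcCtatgacAgAtatgCtgcCatCtgT
A second conserved stretch, before the sixth transmembrane segment, lies at chr9:38828416-38828442 and chr9:40092224-40092250 and differs at 4 of 27 bases.
Olfr923: aaAgccTtcaAcacctgcagTtctcac
Olfr983: aaGgccCtcaGcacctgcagCtctcac
No 50-base window of the 4 annotated Olfr923 transcripts occurs in the transcript of any other gene. Of the 1001 such windows in the shorter Olfr983 transcript, 13 (1.3%) also occur in Olfr887, Olfr888, Olfr889 or Olfr901, and of the 6147 windows in the longer one, 21 (0.342%) occur in these ORs, in Olfr804 or in genes outside the family, among them Exph5 and Ubap2l. Counts of Olfr983 and of these genes could thus in small part be shared.

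Counts on ORs ran from 37012 to 128805 per pS6-IP-Seq library and from 155319 to 242123 in total RNA. Values below are normalized counts, that is counts per 100000 OR counts after TMM scaling, and a change within a litter is the log2 ratio of an odor mouse to its no odor littermate after adding 1. The deposited tables hold ORs only, so markers of tissue or other cell types are not analysed here. Over the 12 no odor libraries, Olfr923 had a median of 104 with a range from 77.0 to 255, and Olfr983 had a median of 121 with a range from 61.0 to 194. Neither range is narrow, the highest library being 3.31 times the lowest for Olfr923 and 3.19 times for Olfr983. One library that matters for both receptors stood apart. In the litter 1 mouse at 1% ACT, the 51 ORs called higher at 1% TMT had a median change of 2.0, with all 51 above 0, against 0.28 and 0.21 in litters 2 and 3. The litter 1 mouse at 0.01% ACT was similar, with a median of 1.83 over these 51 ORs against 0.04 and 0.11 in its group. The litter 1 mouse at 100% ACT had 1.04, against 0.27 and 0.37. The medians over the 876 ORs whose mean count was 10 or more were 0.06, 0.00 and -0.04 in these 3 libraries, and what part the TMT-responsive ORs have in the members' values was not tested.

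At 0.01% ACT, the concentration that chose them, both receptors were above their no odor littermates in every litter. Olfr923 had 1937, 1009 and 601 normalized counts in litters 1, 2 and 3, against 87.7, 122 and 170 without odor. Olfr983 had 367, 334 and 263, against 61.0, 97.1 and 79.3. In this contrast, which chose the pair, all odor mice lay above all 12 no odor libraries for both genes. The share of all ORs separated in this way was not counted. The mean change over litters was 3.10 ± 1.32 (SD, n = 3) for Olfr923 and 2.02 ± 0.48 (SD, n = 3) for Olfr983, which placed them 1st and 3rd by fitted change among the 902 ORs averaging at least 10 counts. By change within litters 1, 2 and 3, Olfr923 ranked 5th, 1st and 10th of 876 ORs. Olfr983 ranked 61st, 5th and 11th. The litter 1 library had the lowest TMM factor of the pS6-IP-Seq libraries, at 0.697, which raises its normalized counts. Without litter 1, whose library stood apart, the mean changes were 2.43 and 1.74. In bulk tissue, a larger number of active OSNs and more pS6-bound RNA per active OSN cannot be told apart, here or at any concentration below.

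At 0.1% ACT both receptors were again above their no odor littermates in every litter. Olfr923 reached 1991, 2574 and 806 normalized counts in the 3 litters, and Olfr983 reached 447, 754 and 199. Litter 3 was the lowest for both, and its Olfr983 value stood just above the highest no odor library. The mean change was 3.71 ± 1.27 (SD, n = 3) for Olfr923 and 2.37 ± 0.91 (SD, n = 3) for Olfr983, and their places by fitted change were again 1 and 3, of 915. Olfr923 was higher at 0.1% than at 0.01% in every litter and Olfr983 in litters 1 and 2, and the mean change moved by less than 1 SD for each gene. In litter 2 at 0.1% ACT, Olfr923 alone took up 2.58% of all OR counts (95% Wilson interval 2.48% to 2.68%, counting error only), against 0.124% (0.105% to 0.148%) in its no odor littermate.

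**Figure D1:**
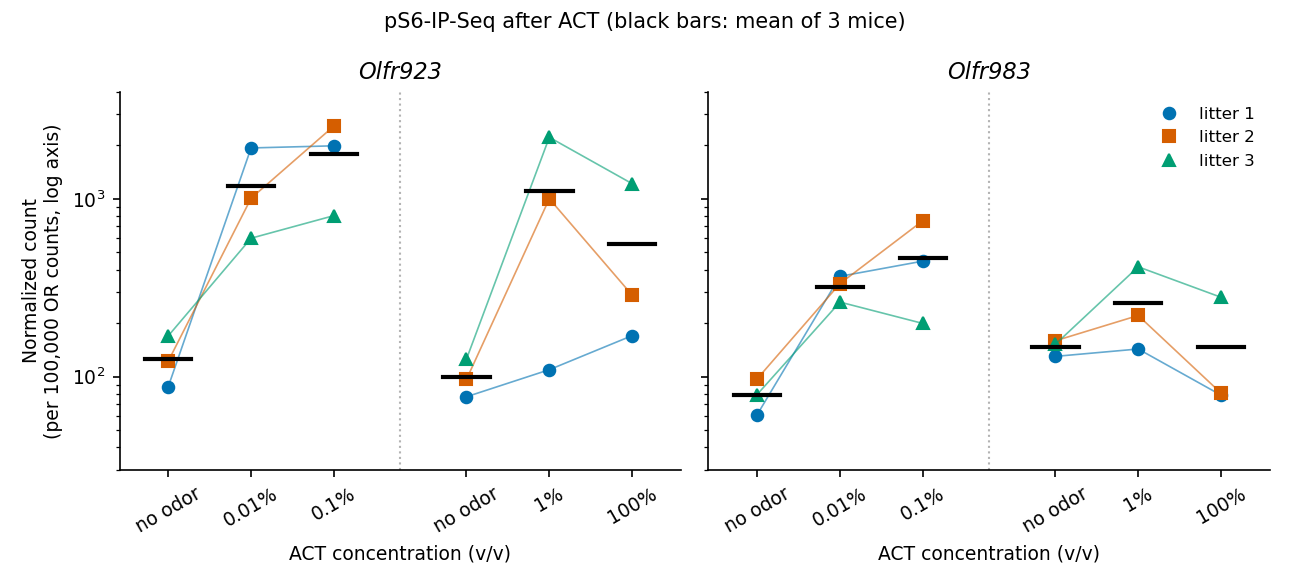
Normalized counts of Olfr923 (left) and Olfr983 (right) in each ACT mouse and its no odor littermate on a log axis, with lines joining mice of a litter within each experiment and black bars at the mean of 3 mice. Olfr923 lies at 601 or above in all mice at 0.01% and 0.1% ACT, but spreads from 109 to 2223 at 1% ACT, where litter 1 stays near its no odor littermate, and Olfr983 at 100% ACT lies below its no odor littermates in litters 1 and 2.

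At 1% ACT, in mice that had no part in choosing the receptors, Olfr923 was far above no odor in litters 2 and 3 and close to no odor in litter 1. Its normalized counts were 109, 1003 and 2223 in litters 1, 2 and 3, against 77.0, 96.4 and 125 in their no odor littermates, which is 1.42, 10.4 and 17.7 times as high. The litter 1 value falls within the range of the no odor libraries, and the other 2 exceed it several-fold. As a share of OR counts, Olfr923 made up 0.0985% (0.0773% to 0.125%) in litter 1 and 2.13% (2.03% to 2.24%) in litter 3, so the gap between litters is far outside counting error. The fitted log2 fold change of 2.83 ± 0.97 (SE, n = 3) was the highest of the 838 ORs averaging at least 10 counts, but edgeR's quasi-likelihood test did not call it (adjusted p = 0.664), with 1.38% of all 1088 ORs called higher and 0.276% lower. The likelihood ratio test did (2.79, adjusted p = 0.00644), while DESeq2 (adjusted p = 0.476), filterByExpr (adjusted p = 0.777) and the fit without the litter block (adjusted p = 0.928) did not. The outcome turned on the litters. In edgeR's quasi-likelihood test without litter 1, the change was 3.76 ± 0.36 (adjusted p = 7.34e-21). Without litter 2 it was 2.40 ± 1.05 (adjusted p = 0.965), and without litter 3 it was 2.03 ± 0.44 (adjusted p = 0.000946). Each of these fits holds only 2 litters. Here and below, an SE is derived from the test and is not a direct measure of the spread between mice.

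Olfr983 moved less at 1% ACT. It had 143, 221 and 415 normalized counts in the 3 litters, against 130, 159 and 152 without odor. Each odor mouse exceeded its own littermate, by 1.10, 1.39 and 2.73 times, but the litter 1 value overlapped the no odor group. The fitted change of 0.70 ± 0.26 (SE, n = 3) was not called (adjusted p = 0.258) and ranked 62nd of 838. Leaving out litter 1 gave 0.95 with an adjusted p of 0.130, and leaving out litter 3 gave 0.29, so no omission of a litter brought it past the threshold.

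At 100% ACT both receptors were lower than at 1% ACT in litters 2 and 3. Olfr923 had 170, 288 and 1219 normalized counts, each above its no odor littermate, by 2.21, 2.98 and 9.72 times. All 3 were above the 3 no odor mice of this experiment, though the litter 1 value was below the highest of the 12 no odor libraries. The fitted change of 2.0 ± 0.43 (SE, n = 3) fell just short of the threshold (adjusted p = 0.0513) and ranked 17th of 826. In the fit used, edgeR's quasi-likelihood test called 0% of ORs in either direction. At an unadjusted p under 0.05, 114 were higher and 41 lower. Other fits were divided. The adjusted p was 0.0374 with RLE scaling, 0.00193 with DESeq2, 0.00164 with the likelihood ratio test and 0.000490 without litter 1, but 0.0681 without TMM, 0.205 with filterByExpr, 0.206 in the joint fit of all ACT libraries, 0.0771 without the block, 0.0978 without litter 2 and 0.164 without litter 3, where the change was 1.37. The number of ORs called also depended on the fit. DESeq2 called 18 ORs higher and 1 lower, and edgeR's likelihood ratio test called 37 higher and 6 lower. RLE scaling gave 10 higher and 0 lower, and the fit without the block 7 higher and 0 lower. Fits without TMM, with filterByExpr and with all ACT libraries called 0.

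Olfr983 did not stand above no odor at 100% ACT. Its normalized counts were 78.7 and 80.8 in litters 1 and 2, below the 130 and 159 of their no odor littermates, and 280 in litter 3, above the 152 of its littermate. The fitted change was -0.27 ± 0.40 (SE, n = 3, adjusted p = 0.815). Litter 3 thus gave the highest value of both receptors at 100% ACT.

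The direct comparison of 100% with 1% ACT gave a change of -0.85 ± 0.60 (SE, adjusted p = 0.607) for Olfr923 and -0.90 ± 0.38 (SE, adjusted p = 0.366) for Olfr983, with n = 3 mice in each group. Of all ORs, 0% were called, and at an unadjusted p under 0.05 there were 90 higher and 48 lower. Within litters, Olfr983 was lower at 100% than at 1% ACT in 3 of 3 litters, with 78.7 against 143, 80.8 against 221 and 280 against 415. Olfr923 was lower at 100% in litters 2 and 3 and higher in litter 1, the litter whose 1% library stood apart. Without litter 1, the change of Olfr923 was -1.25 with an adjusted p of 0.0859, and without litter 2 it was -0.34 with an adjusted p of 0.953. This fit held the mice of all ACT concentrations, and a litter number left out was dropped at each of them.

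Olfr923 showed a larger change than Olfr983 in every litter at every ACT concentration. The difference between their log2 changes averaged 1.08 ± 0.90 at 0.01%, 1.33 ± 0.37 at 0.1%, 1.98 ± 1.41 at 1% and 2.26 ± 0.36 at 100% ACT (SD, n = 3 litters each). These are descriptions with no test, since the pair was picked for its ACT response. With TMT the same difference was 0.16 ± 0.52 at 0.01%, 0.73 ± 0.15 at 0.1%, -1.01 ± 1.01 at 1% and 0.43 ± 0.85 at 100% (SD, n = 3 litters each). The negative mean at 1% TMT was carried mostly by litter 3, at -2.06 against -0.04 and -0.95 in litters 1 and 2.

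**Figure D2:**
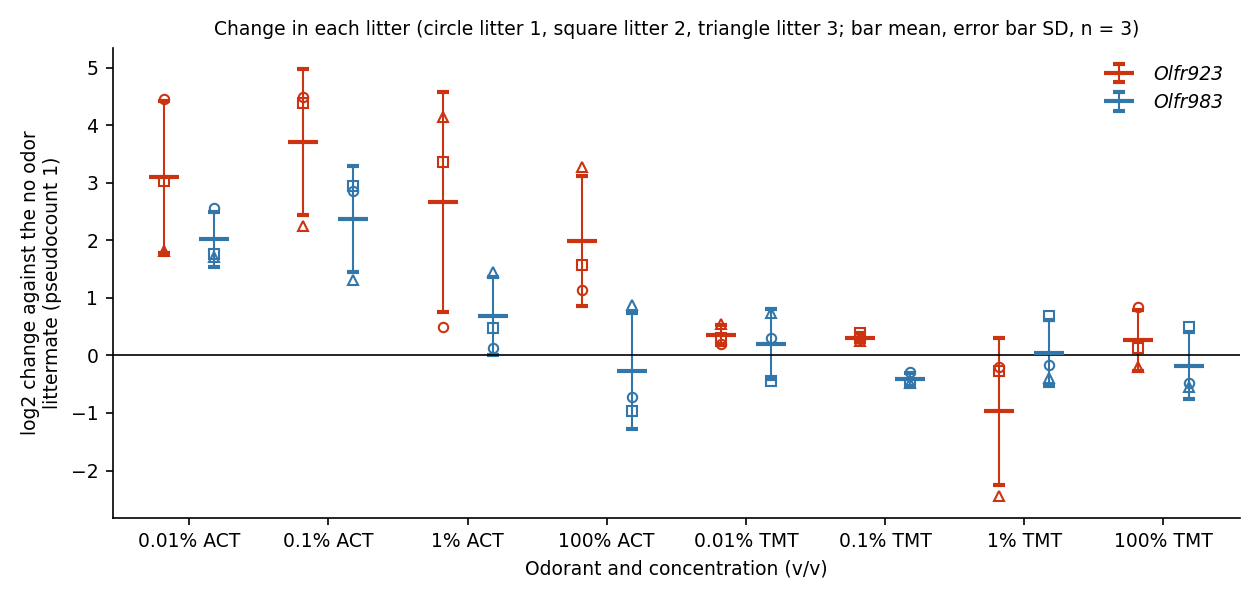
Log2 change of each odor mouse against its no odor littermate for Olfr923 (red) and Olfr983 (blue) at each concentration of ACT and TMT, with each litter as an open symbol, the mean as a bar and the SD over 3 litters as the error bar. Olfr923 lies above 0 in every litter at every ACT concentration with means of 3.10, 3.71, 2.67 and 1.99, while changes with TMT lie around 0 apart from litter 3 at 1% TMT.

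Neither receptor was called higher at any TMT concentration. None of the 12 TMT mice exceeded the highest no odor library for Olfr923 or for Olfr983. At 0.01% TMT, Olfr923 had 97.5, 123 and 156 normalized counts against 84.6, 99.4 and 106 without odor, and its fitted change was 0.35 ± 0.28 (SE, n = 3, adjusted p = 0.954). At 0.1% TMT it had 104, 131 and 126, with a fitted change of 0.32 ± 0.25 (SE, n = 3, adjusted p = 0.951). These small changes were positive in 3 of 3 litters at both concentrations, and the 2 comparisons share their no odor mice. Of all ORs, 0.368% were called higher and 0.0919% lower at 0.01% TMT, and 1.38% higher and 0.643% lower at 0.1% TMT.

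At 1% TMT, Olfr923 was called lower. Its normalized counts were 88.2, 118 and 45.9 in litters 1, 2 and 3, against 102, 142 and 255 without odor. Every odor mouse was below its littermate, but only litter 3 was far below, at 0.180 times, and the litter 3 no odor mouse holds the highest Olfr923 value of all 12 no odor libraries. The fitted change was -0.97 ± 0.29 (SE, n = 3, adjusted p = 0.0193), with 0.184% of ORs called lower and 4.69% higher. The changes within litters had an SD of 1.28, a spread that this SE does not measure. Without litter 3 it was -0.22 with an adjusted p of 0.945, and DESeq2 did not call it either (-0.94, adjusted p = 0.474). The counts behind the litter 3 ratio were 23 and 105. At 100% TMT, Olfr923 had 184, 156 and 223, with a fitted change of 0.20 ± 0.27 (SE, n = 3, adjusted p = 0.738) while 11.6% of ORs were called higher and 3.31% lower. Its sign there was negative when libraries were scaled by their totals (-0.04), relative to a median of -0.32 over all ORs.

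Olfr983 was not called at any TMT concentration. It had 138, 97.2 and 173 normalized counts at 0.01% TMT and 91.2, 95.1 and 73.6 at 0.1% TMT, against 111, 133 and 103 in their no odor mice. The values at 0.1% were below the littermates in 3 of 3 litters, and the fitted change of -0.41 ± 0.26 (SE, n = 3) had an adjusted p of 0.864. At 1% TMT the 3 mice had 126, 111 and 148 and at 100% TMT 101, 97.5 and 133, around no odor values of 141, 68.9 and 194. The fitted changes were -0.02 (adjusted p = 1.0) and -0.26 (adjusted p = 0.670).

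**Figure D3:**
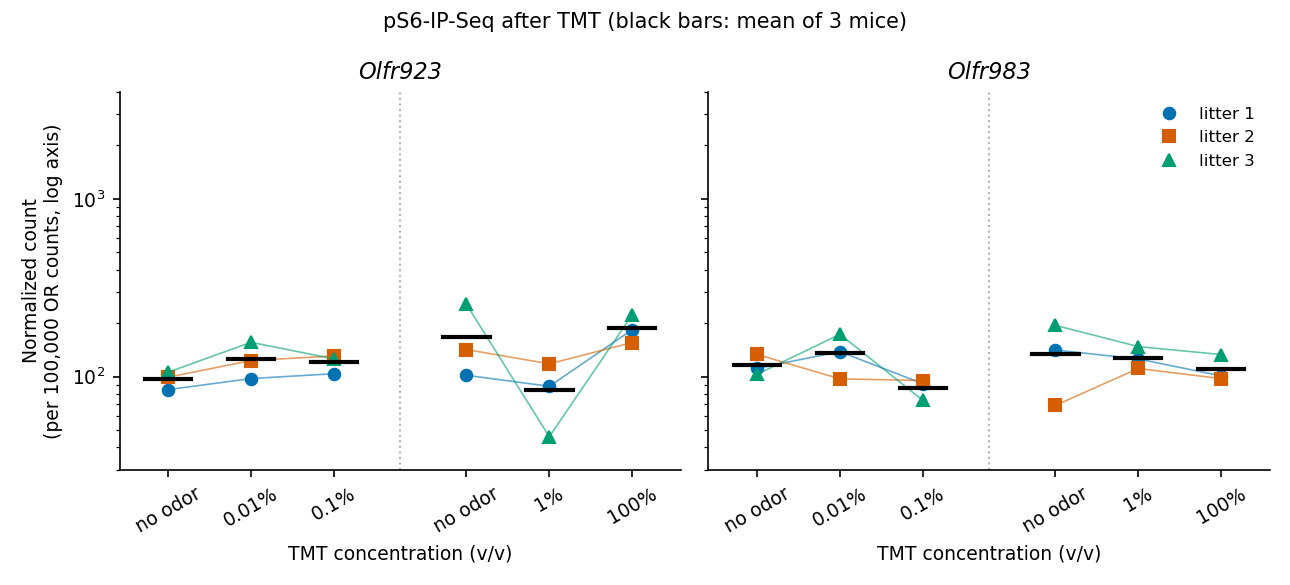
Normalized counts of Olfr923 (left) and Olfr983 (right) in each TMT mouse and its no odor littermate, on the same log axis and with the same symbols as the plot of ACT mice. All TMT mice lie between 45.9 and 223 for Olfr923 and between 73.6 and 173 for Olfr983, and the fall of Olfr923 at 1% TMT is carried by litter 3.

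The difference between the odorants was tested on the responses themselves, as the change with ACT minus the change with TMT at equal concentration. In these fits, a litter number left out was dropped with both odorants, whose litters were treated as separate. At 1%, the difference for Olfr923 was 3.80 ± 0.77 (SE, n = 3 mice in each of 4 groups), the highest of 838 ORs, with an adjusted p of 0.0563. The test called 0% of ORs, and 21 were higher and 32 lower at an unadjusted p under 0.05. DESeq2 called the difference for Olfr923 (3.69, adjusted p = 0.0359), as did fits with RLE scaling (adjusted p = 0.0403), with a filter on low counts (adjusted p = 0.0346) and without litter 1 (4.94, adjusted p = 1.18e-06). It was not called without TMM (adjusted p = 0.142), without the litter block (adjusted p = 0.682), without litter 2 (3.80, adjusted p = 1.0) or without litter 3 (2.47, adjusted p = 0.140). DESeq2 called 1 OR higher and 1 lower in all. At 100%, the difference was 1.81 ± 0.74 (SE, adjusted p = 0.311), with 0.46% of ORs called higher and 0.276% lower, and without litter 1 it was 2.48 with an adjusted p of 0.00676. Without litter 3 it was 0.91 (adjusted p = 0.917). For Olfr983 the differences were 0.68 ± 0.44 (SE) at 1% and 0.00 at 100%, both with an adjusted p of 1.0.

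In total RNA of the olfactory epithelium, Olfr923 was a dorsal OR and Olfr983 was not assigned to either part. ORs are expressed in zones along the dorsal to ventral axis, and dissected tissue shows where the OSNs of an OR are concentrated. Olfr923 had 502, 367 and 652 normalized counts in the dorsal libraries, against 18.9, 27.1 and 24.2 in the ventral ones. The fitted change was 4.41 ± 0.61 (SE, n = 3, adjusted p = 0.000152) in a comparison where 37.4% of 1087 ORs were called dorsal. Leaving out any 1 number left it between 4.24 and 4.89, with an adjusted p of at most 0.00477.

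Olfr983 had 29.3, 19.3 and 23.0 normalized counts in the dorsal libraries and 39.8, 31.8 and 38.8 in the ventral ones. The ventral libraries were all higher, but the fitted change of -0.64 ± 0.53 (SE, n = 3) was not called (adjusted p = 0.286), and 37.2% of ORs were called ventral. This scale is centred by TMM over the ORs and the median of all ORs lay at -0.65, so Olfr983 was 0.01 from the median and Olfr923 5.06 above it. Scaling by totals moved the median to -1.24 and left these distances at 0.02 and 5.06.

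**Figure D4:**
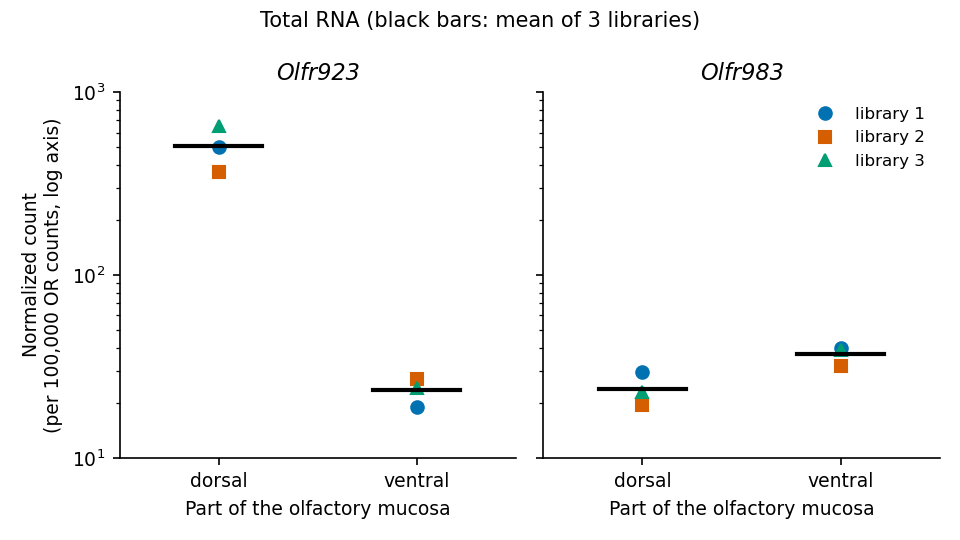
Normalized counts of Olfr923 (left) and Olfr983 (right) in 3 dorsal and 3 ventral total RNA libraries on a log axis, with black bars at the means. Olfr923 lies at 367 to 652 in dorsal and 18.9 to 27.1 in ventral libraries, while Olfr983 lies at 19.3 to 29.3 and 31.8 to 39.8.

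No neighbour of the receptors on chromosome 9 was called with ACT, in comparisons where 1.38% of all ORs were called higher at 1% and 0% at 100%. The 5 nearest listed ORs on each side of Olfr923 run from Olfr918 to Olfr933, the nearest being Olfr922 and Olfr924 at 11.9 kb and 17.9 kb between starts. At 1% ACT, 0 of these 10 were called, and their median change of 0.40 compares with 0.02 over all 1088 ORs. At 100% ACT it was again 0 of 10, with a median of 0.38 against 0.00. Olfr983 lies near the end of the cluster, with 5 listed ORs on one side and 3 on the other, and of these 8, from Olfr976 to Olfr986, 0 were called at either concentration, with medians of -0.15 and -0.19. Several neighbours have few counts, and 6 of 10 and 6 of 8 averaged at least 10 counts at 1% ACT. At an unadjusted p under 0.05, 0 neighbours of Olfr923 differed at 1% ACT and 2 were higher at 100% ACT, and 1 neighbour of Olfr983 was lower at each concentration. Of all ORs, 48 were higher and 32 lower in this way at 1% ACT, and 114 higher and 41 lower at 100% ACT.

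By zone the neighbourhoods were mostly dorsal. Of the 10 neighbours of Olfr923, 7 were called dorsal and 1 ventral, with Olfr922 and Olfr924 at 4.64 and 4.41, beside 4.41 for Olfr923. Of the 8 neighbours of Olfr983, 6 were called dorsal and 2 ventral. Olfr982, 13.1 kb from Olfr983, had a change of 3.76 and was called dorsal (adjusted p = 0.000158), while Olfr984, 9.6 kb away on the other side, had -2.37 and was called ventral (adjusted p = 0.0124). The background is 37.4% dorsal and 37.2% ventral.

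The closest relatives of Olfr983 in sequence had mostly positive changes with ACT, and 1 of 5 was called at 1% ACT, where 1.38% of all ORs were called higher. These 5, all on chromosome 9, are Olfr888, Olfr890, Olfr887, Olfr889 and Olfr901, at 82.0%, 80.4%, 79.7%, 79.4% and 79.0% identity. At 1% ACT their median change was 1.01, against 0.02 over all ORs. The called relative was Olfr888, with 9, 31 and 49 counts at 1% ACT in litters 1 to 3 against 4, 0 and 5 without odor (2.81, adjusted p = 0.00143). Few reads underlie this gene, whose no odor counts are near the limit of detection. Olfr887, 79.7% identical to Olfr983, had 32, 34 and 32 counts against 28, 46 and 30, a change of -0.45 (adjusted p = 0.949).

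At 0.1% ACT, where no test is given, 4 of these 5 relatives had positive fitted changes, at 2.44 for Olfr890, 2.0 for Olfr889, 1.85 for Olfr888 and 1.41 for Olfr901, beside 2.42 for Olfr983 and -0.07 for Olfr887. Because Olfr983 shares 50-base windows with Olfr887, Olfr888, Olfr889 and Olfr901, part of these counts is uncertain. In the 5 nearest relatives of Olfr923 (Olfr147, Olfr904, Olfr905, Olfr906 and Olfr918, at 66.1% to 70.4% identity) the median at 1% ACT was 0.52 with 0 of 5 called, and at 100% ACT it was 1.65 with 0 of 5 called and 4 higher at an unadjusted p under 0.05. Over all 1088 ORs, 1.38% were called higher at 1% ACT and 0% at 100% ACT, with median changes of 0.02 and 0.00. At 100% ACT, 114 of all ORs were higher at an unadjusted p under 0.05. By zone, 4 of these 5 were called dorsal, like Olfr923 and 37.4% of all ORs, whereas of the relatives of Olfr983 only Olfr888 was called dorsal and only Olfr887 ventral.

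Among the many ORs known to respond to ACT are M71 (Olfr151), M72 (Olfr160) and Olfr145. These 3 were called dorsal, at 4.32, 3.69 and 3.82, as were Olfr923 and 37.4% of all ORs. Of the 3, only 2 averaged at least 10 counts in the dorsal and ventral libraries. Olfr145 had 49, 271 and 438 counts at 1% ACT, against 49, 87 and 30 without odor, and in litter 1 its normalized count was below that of the littermate (log2 change -0.51). Its fitted change was 1.45 (adjusted p = 0.986), and of the 3 receptors 0 were called at 1% ACT, beside 1.38% of all ORs, or at 100% ACT, where 0% of all ORs were. At an unadjusted p under 0.05, 0 of the 3 were higher at 1% ACT and 2 at 100% ACT, against 48 and 114 of all 1088 ORs. Olfr160 had 18, 31 and 43 counts at 1% ACT against 12, 27 and 19, a change of 0.27 (adjusted p = 0.990). Olfr151 had at most 6 counts in any pS6-IP-Seq library, too few to show a change. The study's methods state that its OR annotation corrected an entry of Olfr151 to Olfr160, and what part this has in the low counts was not tested.

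**Figure D5:**
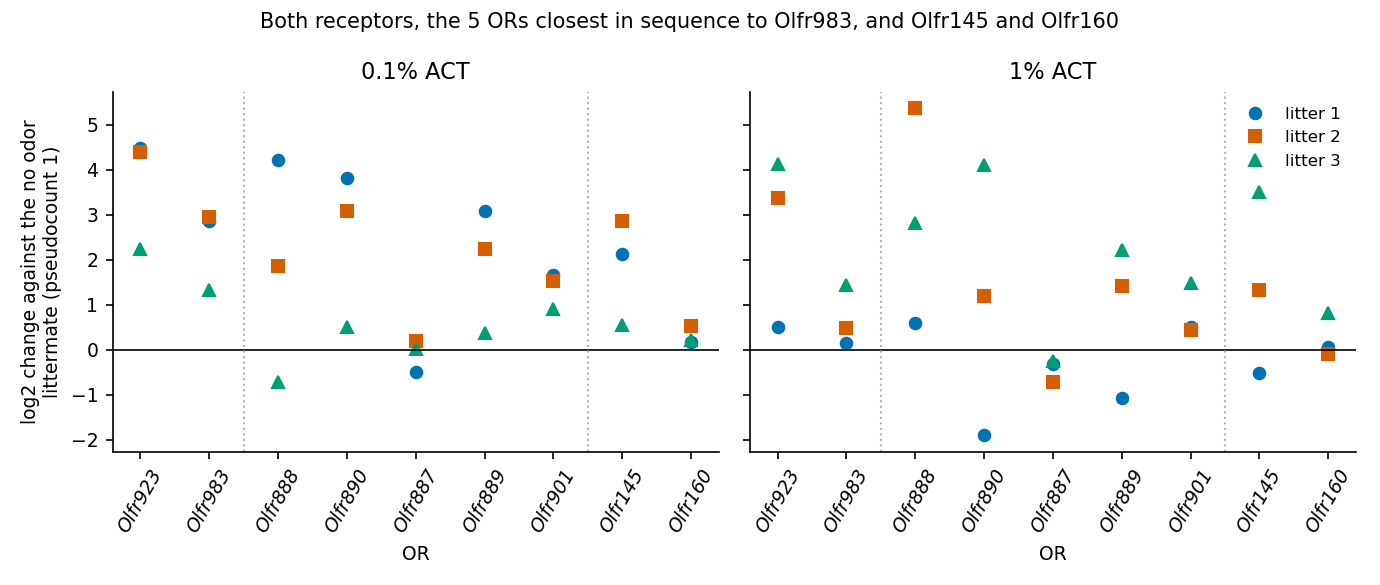
Log2 change against the no odor littermate in each litter at 0.1% ACT (left) and 1% ACT (right), for Olfr923 and Olfr983, the 5 ORs closest in sequence to Olfr983, and Olfr145 and Olfr160, with symbols for litters 1, 2 and 3. At 1% ACT the litter 1 point is the lowest of the 3 for Olfr923, Olfr983, Olfr888, Olfr890, Olfr889 and Olfr145.

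The ORs whose pattern over the 36 pS6-IP-Seq libraries was most like that of each receptor were sought among 809 ORs with a mean normalized count of at least 20, by Pearson's r on log2 values. For Olfr923 they were Olfr145 (0.84), Olfr889 (0.82), Olfr983 (0.82), Olfr1377 (0.80) and Olfr890 (0.77). For Olfr983 they were Olfr923 (0.82), Olfr901 (0.80), Olfr889 (0.80), Olfr145 (0.76) and Olfr913 (0.69). The libraries share litters, no odor mice and the ACT groups in which both receptors were high, so these values are a description. With Spearman's rho, which gives the few high libraries less weight, Olfr983 ranked 14th for Olfr923, at 0.49.

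Of these similar ORs, Olfr1377 had 46, 264 and 579 counts at 1% ACT against 33, 51 and 42 without odor, again with litter 1 close to its littermate, and was called dorsal (3.48, adjusted p = 0.000270). Olfr913 had 25, 125 and 323 against 9, 61 and 56 in the same libraries, and was called ventral (-1.76, adjusted p = 0.0370). The ACT values of both are a description, since these libraries chose them.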

How the data were processed

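Per the labels and the study's methods, RNA bound to pS6 was sequenced from 36 mice as 50-base reads. For the 6 dorsal and ventral samples the labels name RNA-Seq but carry the pS6 protocol, and the methods' total RNA extraction was followed. The authors mapped the reads with STAR to GRCm38, counting each OR with its UTRs, and estimated expected counts with RSEM; the deposited tables give them rounded to whole numbers, and they were used as deposited. The same tables hold the authors' own fold changes, p-values and mean signals, which were not used. The labels of the no odor libraries do not name their experiment, which follows titles and the authors' R code.

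Counts were tested with edgeR 4.0.16 in R 4.3.3 (glmQLFit, robust, and glmQLFTest, two-sided), with TMM scaling over ORs, no filter on low counts, the litter as a block, and Benjamini-Hochberg adjustment over all listed ORs at a threshold of 0.05. The SE is the fitted change divided by the square root of the quasi-likelihood F, so it restates the test. Fits with RLE scaling, no TMM, DESeq2 1.42.0, the likelihood ratio test, filterByExpr, no block, joint libraries and each litter left out were tried. Litters are numbered anew in each experiment, and leaving out a number dropped it from every experiment in the fit. Sequences and positions come from GENCODE M21, which places 1082 of the ORs uniquely, and coding sequences of 1083 ORs were translated and aligned with Biopython 1.88. Python 3.11.15 served for the other steps. A pseudocount of 1 was used for changes within litters, and intervals are 95% Wilson intervals that cover counting error only.

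The genes named are both receptors, the 5 nearest listed ORs on each side of each, the 5 closest to each in translated sequence, M71, M72 and Olfr145, and the 5 with the highest Pearson's r to each. The receptors and these lists were chosen with earlier results of these data known. Littermates of the same sex form a replicate, so the numbers pair the mice of an experiment. The median correlation between the deviations of same-numbered mice was 0.09, 0.15, 0.12 and 0.08 in the ACT low, ACT high, TMT low and TMT high experiments, against -0.03, -0.07, -0.05 and -0.03 for different numbers. For dorsal and ventral libraries the values were -0.33 and 0.20, so there the number follows the authors' code alone.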

Additional observations from a re-analysis of the deposited data

Results flagged for a closer look

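At 1%, Olfr923 was above its no odor littermate in 3 of 3 ACT litters and below it in 3 of 3 TMT litters, with mean changes of 2.67 and -0.97. The TMT mean was carried by litter 3, and without it the fitted change was -0.22 (edgeR, adjusted p = 0.945). The ACT value of litter 1 and the TMT values of litters 1 and 2 lay within the range of the no odor libraries. The test of the difference itself gave 3.80 with an adjusted p of 0.0563 by edgeR, which does not pass the threshold. The sizes within litters were uneven, from 0.50 to 4.14 with ACT and from -2.45 to -0.20 with TMT. The lowest ACT value is that of litter 1, whose library also had high counts of TMT-responsive ORs. In the litter 1 library at 0.01% ACT, the ORs called higher at 1% TMT were high too, with a median change of 1.83. Olfr923 was there the highest of its group, at 1937 normalized counts. What part the TMT-responsive ORs have in either value was not tested.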

How the results depend on the processing

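Of 218 refits of the 24 values given for the receptors, 187 were counted as unchanged. For tested values, unchanged meant the same direction and the same side of the threshold. The 24 values include the mean changes of both receptors at the ACT concentrations described with no test. Refits of these mean changes have no p-value and no threshold to cross, and all of them were counted as unchanged. The zone of Olfr923 was called in all its refits. At 1% ACT, Olfr923 passed with the likelihood ratio test (2.79), and leaving out a litter gave 2.03 to 3.76. At 100% ACT it passed with RLE (2.01), DESeq2 (2.0) and the likelihood ratio test (1.99), and leaving out a litter gave 1.37 to 2.46. The decrease of Olfr923 at 1% TMT was lost with DESeq2 (-0.94), filterByExpr (-0.98) and the joint fit (-0.92), and leaving out a litter gave -1.34 to -0.22. Without the replicate block it was also lost (-0.98, adjusted p = 0.104), and the block changed no other call of the receptors. The ACT minus TMT difference of Olfr923 at 1% passed with RLE (3.77), DESeq2 (3.69), the likelihood ratio test (3.75) and filterByExpr (3.75), with 2.47 to 4.94 when a litter was left out, and at 100% the latter range was 0.91 to 2.48. For 100% against 1% ACT, it was -1.25 to -0.34 for Olfr923. The cause of these differences between fits was not tested.

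Some values near 0 changed sign. Olfr923 at 100% TMT was -0.042 without TMM, and -0.049 to 0.48 with a litter left out. Olfr983 at 1% TMT was 0.012 with RLE and 0.021 with DESeq2. Its ACT minus TMT difference at 100% was -0.0073 with DESeq2, -0.00047 with the likelihood ratio test and -0.024 with filterByExpr. With a litter left out, Olfr983 ranged from -0.85 to 0.16 at 100% ACT, -0.081 to 0.53 at 0.01% TMT, -0.29 to 0.26 at 1% TMT and -0.77 to 0.59 in that difference.

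Counts of ORs called in either direction ranged over the alternatives from 0 to 21 at 1% ACT (18 in the fit used), 0 to 87 at 100% ACT (0), 2 to 5 at 0.01% TMT (5), 11 to 25 at 0.1% TMT (22), 98 to 206 at 100% TMT (162), 0 to 64 for 100% against 1% ACT (0), and 0 to 27 and 0 to 58 for ACT minus TMT at 1% (0) and 100% (8). Scaling by totals made 101 rather than 36 ORs lower at 100% TMT, beside 105 rather than 126 higher. Of 5 ORs most like each receptor by Pearson's r, 2 for Olfr923 and 4 for Olfr983 were also among the 5 by Spearman's rho. With 3 litters and some libraries near 37012 OR counts, the data limit what can be said of ORs with few counts such as Olfr888 and Olfr151.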
